A study of Mus musculus with 2 samples.

Results

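The nuclear-encoded subunits of mitochondrial complex I were described in 2 neonatal mouse hearts. Members were the protein-coding genes whose mouse symbol is Ndufa, Ndufb, Ndufc, Ndufs, Ndufv or Ndufab followed by a number and nothing more, which leaves out the assembly factors (Ndufaf) and the pseudogenes. The rule used no measured value and found 37 members among the 43346 Ensembl genes of the deposited tables, of which 7 are core and 30 accessory subunits. The 30 include Ndufa4, which is found in complex IV and was counted with them here. Ndufb1 was not analysed here.

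Total RNA was sequenced from single hearts of 2 B6NCrl pups on postnatal day 0, given in the labels as pup 2 (replicate 1) and pup 3 (replicate 2) of pregnancy 1. The strain is an inbred one, no treatment or engineered allele is given, and both samples carry 1 donor identifier. There was 1 group, neonatal heart (n = 2), so comparisons are between genes within each heart and between the pups, and no p-value is given. Values are in TPM (a read count corrected for transcript length and scaled to a fixed total), and ± marks the SD between the pups.

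Complex I takes electrons from NADH, passes them through a flavin and a chain of iron-sulfur clusters to ubiquinone, and pumps protons across the inner mitochondrial membrane. Its core subunits carry out this chemistry and are shared with bacteria, while the accessory subunits surround them and are needed for assembly and stability. The peripheral arm, which holds the NADH-oxidising tip and the quinone-reducing part, stands in the matrix. The membrane arm holds the proton pumps, whose own core subunits are encoded by mitochondrial DNA. Heart muscle is rich in mitochondria, and this chain drives most of the ATP production of the adult heart.

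Expected counts summed to 46151722 in the library of pup 2 and 44707283 in that of pup 3. Several heart muscle genes were abundant. Myh6, a cardiac myosin heavy chain, was at 3871 and 3104 TPM and cardiac actin (Actc1) at 16412 and 13902 TPM in replicates 1 and 2. The lowest of the 6 cardiomyocyte markers, Ryr2, was at 26.2 and 22.2 TPM. Of the 3 skeletal muscle markers, Myod1 was at 0 and 0.02 TPM, Myog at 0.24 and 0.19 TPM and Acta1 at 113.3 and 90.6 TPM. The 6 cardiomyocyte markers summed to 37895 and 33958 TPM, the 3 erythroid markers to 6031 and 3914 TPM, and the 3 lung markers to 28.8 and 563.6 TPM, within which Scgb3a2 was at 2.96 and 563.0 TPM, Sftpc at 25.5 and 0.34 TPM and Sftpb at 0.42 and 0.25 TPM. Of the cardiomyocyte markers 4 were lower in replicate 2 and 2 were higher, among the latter Nkx2-5 at 105.8 and 117.0 TPM. The samples thus differed in blood, lung and some heart muscle genes, and the part of this in any difference between the pups was not tested. In whole tissue, fewer cells of a type and less RNA per cell cannot be told apart.

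By the TPM of the whole gene, every member was abundant. The 37 genes summed to 35130 and 36560 TPM, or 3.51% and 3.66% of all TPM, and took 809377 and 825948 counts, or 1.75% and 1.85% of each library. The median member was at 847.1 and 878.3 TPM (862.7 ± 22.05, n = 2). All 37 stood above 100 TPM in both pups, and 36 of 37 lay in the top 5% of the 11686 nuclear protein-coding genes detected at 1 TPM or more. The lowest member, Ndufb4, was at the 94.8th percentile of these genes and the highest, Ndufa4, at the 99.7th. With only transcripts annotated as protein coding, 36 members reached 100 TPM in both pups, and Ndufb4 was at 43.8 and 45.2 TPM. Counts behind a member ran from 3386 to 45690, and 3 counts, the limit that a count of 0 allows, were worth 0.0307 to 0.322 TPM in replicate 1 for the longest and shortest member. Such floors cover counting error only, so depth did not limit any level given here.

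The levels were nevertheless not equal. The highest member exceeded the lowest 14.2-fold, with 10 members at a mean of 1000 TPM or more, 20 from 500 to 1000 TPM and 7 under 500 TPM. The middle of the list was narrow: 27 members lay within 2-fold of the median, and the interquartile range ran from 698.3 to 1005 TPM. A pair of members was called separated where the order was the same in both pups, the mean log2 ratio exceeded the difference between the pups, and the deposited credibility intervals did not overlap in either pup. By this rule 626 of 666 pairs (94.0%) were separated, and among the 36 pairs of neighbours in the order 19 were. The unseparated neighbours formed 5 runs, from Ndufb10 to Ndufa12, from Ndufb5 to Ndufb7, from Ndufb6 to Ndufa8, Ndufs1 with Ndufs8, and Ndufs4 with Ndufb4. Across the 37 members the rank correlation of the levels between the pups was 0.994, a description over genes that share 2 libraries.

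**Figure D1:**
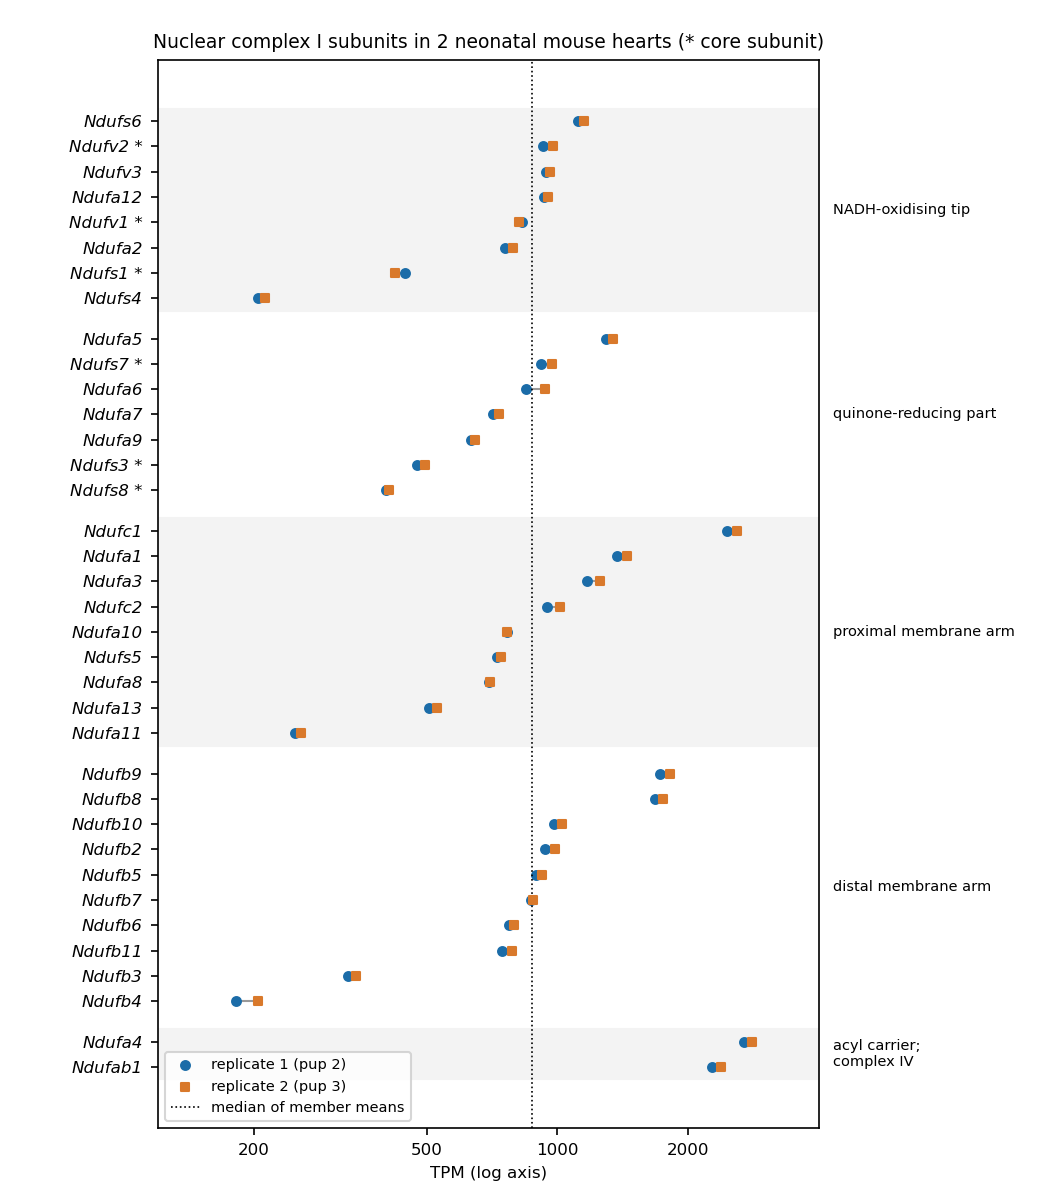
TPM (log axis) of 36 of the 37 members in replicate 1 (circles) and replicate 2 (squares), grouped by place in the complex, with core subunits starred and the median of the member means as a dotted line. Values of the same gene in the 2 pups lie close together, and each of the 4 places in the arms holds members above and below the median, from Ndufb4 at a mean of 193 TPM to Ndufc1 at 2520 TPM.

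In the NADH-oxidising tip, NDUFV1 binds the flavin and NADH, and its gene stood at 827.5 and 817.4 TPM in replicates 1 and 2. Ndufv2, which encodes its iron-sulfur partner, was at 927.3 and 977.5 TPM. Ndufs1 encodes the largest subunit, with several iron-sulfur clusters, and was at 445.4 and 423.0 TPM. The largest core subunit of the tip therefore had a lower transcript level than its 2 core partners in both pups (434.2 ± 15.9 against 822.5 ± 7.12 TPM for Ndufv1, n = 2). Among the accessory members of the tip, zinc-binding Ndufs6 was highest at 1113 and 1149 TPM. Ndufa12, a paralog of an assembly factor, stood at 929.7 and 952.9 TPM, and Ndufa2, with a thioredoxin-like fold, at 758.3 and 790.8 TPM. Ndufs4, whose loss in humans is a cause of Leigh syndrome, was the lowest of the tip and the last but one of all members, at 203.9 and 211.8 TPM. Ndufs4 and Ndufs6 thus lay at the opposite ends of the tip in both pups.

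Ndufv3, an accessory subunit that mammals make in a short and a long form, was at 941.2 and 958.8 TPM. The forms differ by exon 3 of 4 of the long transcript, 1092 bases at chr17:31527310-31528401 (GRCm38, forward strand), a length divisible by 3. The transcript without it, Ndufv3-202, held 96.3% of the gene's TPM in replicate 1 and 96.5% in replicate 2, against 3.56% and 3.42% for Ndufv3-201, which includes it. In counts this was 13345 and 13477 for the short form and 1837 and 1779 for the long one. The junctions that tell the forms apart are printed from the GENCODE M21 transcripts, 30 bases from each side, with the bases after the junction in capitals.
Ndufv3-202, exon 2 to the last exon: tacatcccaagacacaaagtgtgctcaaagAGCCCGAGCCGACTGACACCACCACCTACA
Ndufv3-201, exon 2 to the long exon: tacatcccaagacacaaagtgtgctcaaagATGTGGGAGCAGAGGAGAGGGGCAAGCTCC
Ndufv3-201, long exon to the last exon: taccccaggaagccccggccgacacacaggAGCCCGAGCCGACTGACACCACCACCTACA
The short form was therefore the main one in both neonatal hearts, and the shares differed between the pups by less than 1 percentage point.

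In the quinone-reducing part, Ndufs7 lies at the ubiquinone site and was at 915.6 and 971.9 TPM in replicates 1 and 2. Ndufs3, a scaffold of the arm, was at 473.8 and 494.4 TPM. Ndufs8, which carries ferredoxin-like clusters, was the lowest core subunit at 402.5 and 410.1 TPM. Of the 7 core subunits, Ndufs1, Ndufs3 and Ndufs8 lay below 500 TPM in both pups. The accessory Ndufa5 was listed highest among these genes at 1293 and 1345 TPM, but its transcripts annotated as protein coding held only 226.4 and 239.1 TPM of this, below Ndufs8. Ndufa6, a small LYR-motif protein that docks the acyl carrier, was at 847.1 and 936.4 TPM, Ndufa7 at 708.9 and 733.2 TPM, and Ndufa9, related to short-chain dehydrogenases, at 633.8 and 645.3 TPM. Ndufa6 had a log2 ratio between the pups of 0.14 in TPM, second to Ndufb4 at 0.17.

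The proximal membrane arm ran from Ndufa11 to Ndufc1. Ndufc1, a single-span membrane subunit, was the second highest of all members at 2456 and 2584 TPM, and its partner Ndufc2 was at 945.2 and 1013 TPM. Ndufa1, a small X-linked membrane subunit, was at 1372 and 1449 TPM, and Ndufa3 at 1169 and 1252 TPM. The middle of this group was formed by Ndufa10, related to nucleoside kinases (765.0 and 767.0 TPM), Ndufs5 (724.5 and 742.5 TPM) and Ndufa8 (695.7 and 700.9 TPM), the last 2 with the twin cysteine motifs of proteins of the intermembrane space. Ndufa13, also known as GRIM-19, was at 505.4 and 529.2 TPM. Ndufa11, which lies near the contact with complex III, was listed at 249.1 and 256.6 TPM, with 24354 and 24819 counts.

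The distal membrane arm comprised the 10 Ndufb members. Ndufb9, another LYR protein, stood at 1720 and 1814 TPM and Ndufb8 at 1676 and 1748 TPM in replicates 1 and 2. Ndufb10 followed at 984.2 and 1025 TPM, Ndufb2 at 934.5 and 985.9 TPM and Ndufb5 at 891.4 and 922.0 TPM. These 5 lay above the median of the member means, 874.4 TPM. Ndufb7, with twin cysteine motifs, was at 870.5 and 878.3 TPM, Ndufb6 at 771.9 and 794.9 TPM and X-linked Ndufb11 at 744.4 and 787.4 TPM. Ndufb3 was clearly lower, at 328.6 and 343.2 TPM, and Ndufb4 lowest of all at 181.9 and 205.0 TPM.

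Placed apart were Ndufab1 and Ndufa4. Ndufab1 encodes the mitochondrial acyl carrier protein, present in both arms and also used in fatty acid synthesis and iron-sulfur cluster assembly, and was the third highest member at 2266 and 2382 TPM. Ndufa4, named as a complex I subunit but found in complex IV, was the highest at 2681 and 2798 TPM. Its paralog Ndufa4l2, known as a target of the hypoxia response, was at 32.3 and 33.1 TPM, 83.8-fold lower. By the TPM of the whole gene, Ndufa4, Ndufc1 and Ndufab1 were separated from each other and from all others in both pups.

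Ndufb4 had a near neighbour in sequence. Ndufb4c, on the reverse strand of chromosome 15 (chr15:73809507-73809896, GRCm38), is annotated as a processed pseudogene in GENCODE M21, and its 390 bases were identical to bases 95 to 484 of the coding transcript Ndufb4-201 of chromosome 16. They start with ATG, end with a stop codon and hold no stop codon in frame before it in 130 codons. Its first 120 bases, chr15:73809777-73809896 on the reverse strand and bases 95 to 214 of Ndufb4-201, show a stretch to which a read of 100 bases could belong to either gene, with the start codon in capitals.
Ndufb4 and Ndufb4c: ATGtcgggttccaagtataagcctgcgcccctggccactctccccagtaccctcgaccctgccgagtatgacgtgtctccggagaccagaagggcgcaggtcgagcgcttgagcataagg
The deposited tables assigned 10565 and 11035 counts to Ndufb4c (951.4 and 1004 TPM) and 3386 and 3696 to Ndufb4, so that the copy held 75.7% and 74.9% of the counts of both. The posterior SD of the count, which measures how uncertain the division of shared reads is, was only 1.18% and 1.17% of the mean for Ndufb4. With the TPM of both genes added, Ndufb4 stood at 1133 and 1209 TPM (1171 ± 53.8, n = 2) and 9th instead of 37th. With the counts of both divided by the length of Ndufb4-201 it was at 419.3 and 447.4 TPM and 33rd. How many of these reads came from either locus was not tested.

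No member passed the rule for shared reads, a posterior SD over 10% of the mean count in either library, against 2.12% of the 13463 genes that averaged 50 counts or more. In 22 members the posterior SD was 0 in both libraries. This measure did not mark Ndufb4, whose copy is identical, so it is no sign that a member has no copy. In a search of the M21 transcripts, 7 pseudogenes of 5 members had 31-base words of which 50% or more were found in a member's transcripts, and 5 of them lay under 20 TPM. The other two were Ndufb4c and Gm4459, a copy of Ndufab1 on chromosome 7 with 92.9% of its words shared and 250.5 and 249.1 TPM, or 9.97% and 9.51% of the counts of both genes. With the TPM of Gm4459 added, Ndufab1 would be at 2517 and 2631 TPM, above Ndufc1 in both pups. In the M21 annotation 13 members share exon bases with another gene, 12 of them with a gene on the opposite strand. Measured against the member, the most abundant of these genes was Mrpl36, which shares 30 bases with Ndufs6 and held 3061 counts against 19835 in replicate 1. The sources used here do not say whether the counting used strand.

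Several levels depend on the length of the transcript model. The deposited tables give Ndufa11-201, the sole transcript of Ndufa11 there, as 2661 bases, while GENCODE M21 gives the same transcript 545 bases. With the M21 length the same counts would be 1431 and 1474 TPM (1452 ± 30.5, n = 2), 5.74-fold higher and 6th instead of 35th. Ndufa3-201 changed the other way, from 349 to 515 bases, which would give 702.5 and 752.3 TPM instead of 1169 and 1252. In the 8 other members of changed length whose main transcript held 95% or more of the gene in replicate 1, the level moved by 0.897-fold to 1.07-fold. Ndufa7-201, with 91.1% of its gene, went from 508 to 528 bases and was not recomputed. Which model the reads came from was not tested, and the places of Ndufa11, Ndufa3 and Ndufb4 in the order depend on it or on the copy.

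**Figure D2:**
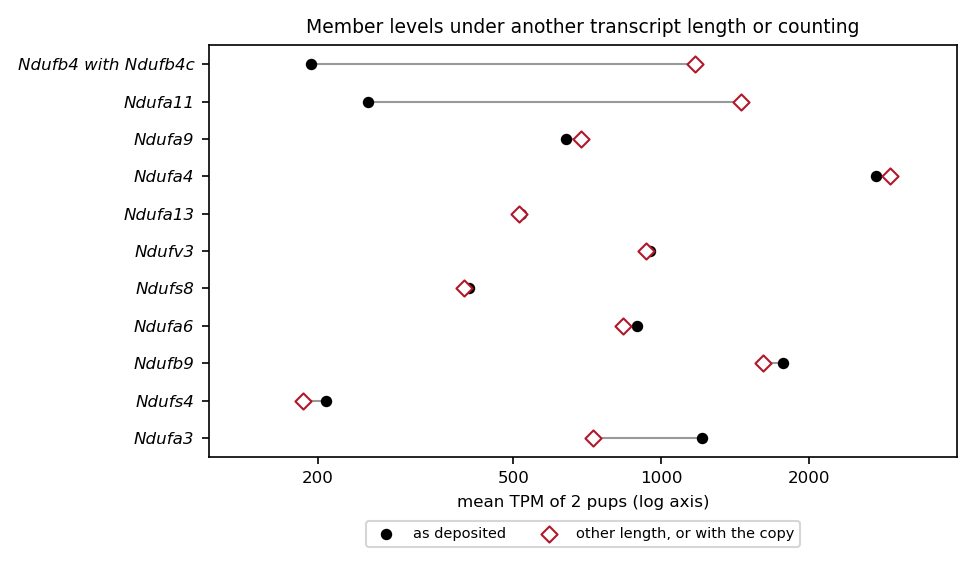
Mean TPM of the 2 pups (log axis) for 10 members whose main transcript holds 95% or more of the gene and has another length in GENCODE M21, and for Ndufb4 with and without the TPM of Ndufb4c. Filled circles are deposited values and open diamonds the alternative. Ndufa11 moves from 253 to 1452 TPM and Ndufb4 from 193 to 1171 TPM, while Ndufa3 falls from 1210 to 727 TPM.

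Across the 37 members TPM was lower for longer genes (Pearson's r of log2 values -0.62, Spearman's rho -0.66), whereas counts were somewhat higher for longer ones (rho 0.36). These are descriptions across genes of the same 2 libraries. Core subunits are the longer ones, with a median length of 1044 against 605.7 bases. The median accessory subunit was at 881.0 and 929.2 TPM, and the log2 ratio of the median core to the median accessory subunit was -0.18 in replicate 1 and -0.28 in replicate 2. Without length correction the sign turned, to 0.86 in CPM, a count scaled by the library total alone. The core members therefore received more reads per gene and fewer per base. The core levels, from 406 TPM (Ndufs8) to 952 TPM (Ndufv2) in the mean, all lay inside the accessory range of 193 to 2740 TPM. The top of that range is Ndufa4, found in complex IV, and the next accessory member, Ndufc1, was at 2520 TPM.

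By place, the median was 877.4 and 885.2 TPM for the 8 members of the tip, 742.9 and 749.5 TPM for the 8 of the quinone-reducing part, 765.0 and 767.0 TPM for the 9 of the proximal arm and 881.0 and 900.1 TPM for the 10 of the distal arm. By the TPM of the whole gene the peripheral arm was thus close to the membrane arm. The log2 ratio of medians was -0.12 in replicate 1 and -0.13 in replicate 2. Each place spanned more than 3-fold among its own members. With the M21 length the ratio was -0.14, and with counts divided by full length -0.023. It was larger with coding transcripts only (-0.25) and in CPM (-0.33). The median of the proximal arm is the value of Ndufa10, whose coding transcripts held 152.0 and 154.9 TPM.

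At the level of transcripts, 13 members had 1 annotated transcript in the deposited tables and 24 had several. In all 24 the transcript with the highest TPM was the same in both pups, against 91.6% of 9520 genes with more than 1 transcript that averaged 50 counts or more. The share of this main transcript differed between the pups by at most 2.02 percentage points. It was above 90% in both pups for 26 of the 37 members and under 80% in at least 1 pup for 9. For 29 members transcripts annotated as protein coding held over 90% of the TPM.

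In 3 members the main transcript was not annotated as protein coding. For Ndufa10 a retained intron transcript of 715 bases (Ndufa10-204) led in TPM with 31.3% and 31.4%, and the coding Ndufa10-201 of 2020 bases held 19.6% and 20.0%. Ndufa10-207, annotated for nonsense-mediated decay, held 23.2% and 23.4%. By counts Ndufa10-201 led instead, with 11014 and 11125 against 5622.5 and 5602.4 for Ndufa10-204. All coding transcripts of Ndufa10 came to 152.0 and 154.9 TPM, against 765.0 and 767.0 for the gene. In counts they held more, 39.2% and 39.5% of the gene. For Ndufa5 the processed transcript Ndufa5-204 held 82.3% and 81.9%, and the coding transcripts together 17.5% and 17.8%. The places of Ndufa10 and Ndufa5 in the order thus depend on which transcripts are counted. For Ndufb4 the retained intron transcript Ndufb4-202 held 75.9% and 77.9%, and the coding Ndufb4-201 24.1% and 22.1%. The last values share the doubt raised by Ndufb4c, to whose identical bases reads of the coding form also belong.

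In 2 of the 3 most abundant members the leading coding transcript held near 50%. Coding Ndufc1-204 held 50.7% and 50.2% of Ndufc1 beside a retained intron transcript, Ndufc1-203, at 34.6% and 34.9%. Coding Ndufab1-206 held 45.2% and 44.5% of Ndufab1 beside the retained intron transcripts Ndufab1-205 (35.2% and 36.6%) and Ndufab1-208 (15.5% and 15.1%). All coding transcripts came to 1250.5 and 1303.6 TPM for Ndufc1 and 1105 and 1138 TPM for Ndufab1. By coding transcripts both lay below Ndufb9, Ndufb8 and Ndufa1 in both pups, so their places also depend on which transcripts are counted. Ndufb5 and Ndufv2 were divided among coding transcripts instead. Ndufb5-203 held 46.0% and 46.6%, Ndufb5-204 27.8% and 26.8%, and Ndufb5-202 25.6% and 25.9%. Ndufv2-201 held 78.8% and 79.5% and Ndufv2-203 19.9% and 19.2%. For the long core genes, Ndufv1-201 held 67.2% and 66.5% and Ndufs1-201 67.0% and 66.2%. Transcripts of a gene share most of their bases, so these shares are estimates of the authors' model, and agreement between pups shows that the estimate repeats, not that each transcript exists. Counting only coding transcripts, the members summed to 30749 ± 846 TPM instead of 35845 ± 1011.

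**Figure D3:**
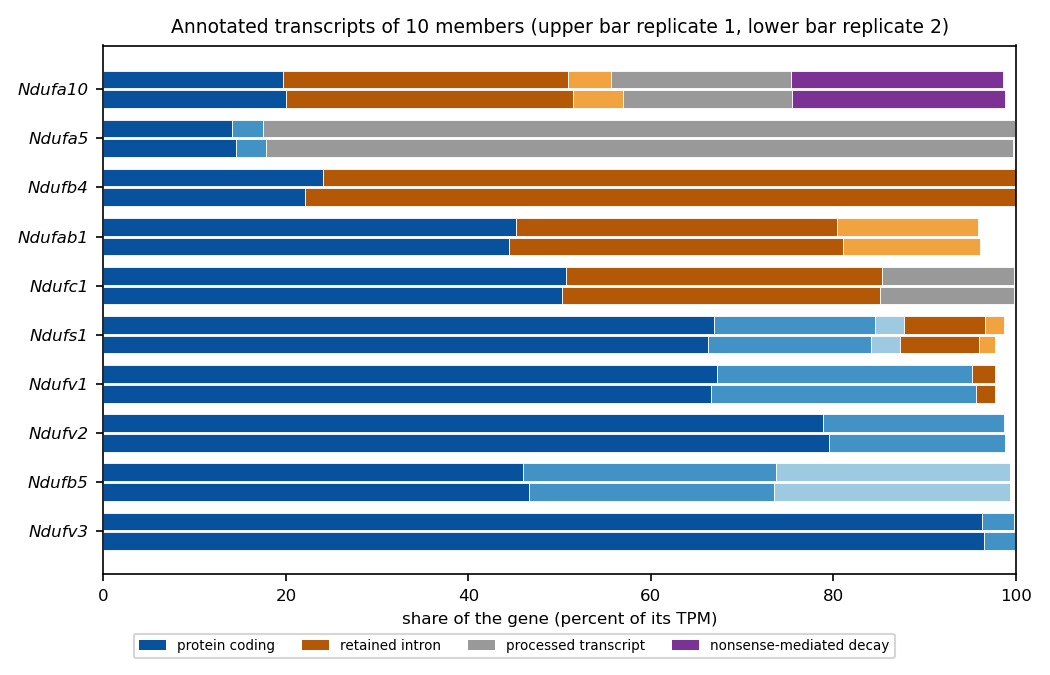
Share of each gene's TPM (percent) held by its annotated transcripts of 2% or more, for 10 members, with replicate 1 in the upper and replicate 2 in the lower bar and colours by annotated type (blues protein coding, browns retained intron, greys processed transcript, purple nonsense-mediated decay). The bars of the 2 pups are nearly alike in every gene, and Ndufa10, Ndufa5 and Ndufb4 are led in TPM by a transcript not annotated as protein coding.

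The promoters of 33 of the 37 members (35 start sites) were matched by symbol in a RefSeq table (GRCm38.p6) of the 250 bases before and 50 after each start, and were searched on both strands. The motif AANATGGCG, the core of the binding site of YY1, was found in 7 of 33 members (21.2%), against 2.76% of 27025 genes in the table. The motif GCGCATGCG of NRF1, a known regulator of respiratory genes, was found in 2 of 33 (6.06%, against 1.95%) and TCAAGGTCA of the ERR receptors in 0 of 33 (against 0.466%). CCGGAAG of the ETS family was found in 4 of 33 (12.1%, against 9.93%), the GC box GGGCGG in 15 of 33 (45.5%, against 38.2%) and CCAAT in 10 of 33 (30.3%, against 41.1%). The 7 matches to AANATGGCG are shown in 30-base windows on the strand of the gene, with the motif in capitals.
Ndufa7, chr17:33824617-33824646, forward: gagcggaaggAATATGGCGtccgctactcg
Ndufa9, chr6:126849096-126849125, reverse: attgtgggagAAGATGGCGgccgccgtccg
Ndufb11, chrX:20617811-20617840, reverse: tcaccaacacAAAATGGCGacgagaagaga
Ndufc1, chr3:51408914-51408943, reverse: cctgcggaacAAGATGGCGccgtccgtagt
Ndufs4, chr13:114388045-114388074, reverse: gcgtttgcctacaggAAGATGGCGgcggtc
Ndufs6, chr13:73328433-73328462, reverse: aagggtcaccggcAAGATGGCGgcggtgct
Ndufs7, chr10:80249463-80249492, forward: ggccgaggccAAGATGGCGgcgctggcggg
In 6 of the 7, all but Ndufb11, the ATG inside the motif is an annotated start codon of the member, and 5 begin 22 to 35 bases after the start of the RefSeq transcript. The 27025 genes were not limited to those with a start codon in the stretch searched. The part of this in the higher share among members was not tested. Windows with the motif came from members of very different level, from Ndufs4 at 208 TPM to Ndufc1 at 2520 TPM. A match of letters is not a bound site, and no binding was measured here.

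Between the pups the members moved little and mostly one way. As log2 ratios of scaled counts, replicate 2 minus replicate 1, 35 of 37 members were higher in replicate 2 by any amount (34 to 36 with other scalings), against 49.7% of 13463 genes, and the median member was at 0.07. The range ran from -0.07 for Ndufs1 (38745 and 36140 counts) to 0.16 for Ndufa6 (14902 and 16298 counts), with Ndufb4 also at 0.16. Ndufv1, like Ndufs1 a long core gene, was at 0.0042 (45690 and 44841 counts).

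No member was higher in replicate 2 by 1.2-fold or more, against 7.94% of 13463 genes, and none was lower by as much, against 7.27%. None differed 2-fold, against 0.498%. The genes compared start at a mean of 50 counts, while the members had 3386 to 45690 counts. Shares among genes of like count were not computed. With 2 pups and 1 library each, differences between animals and between libraries cannot be told apart.

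Gene length moved with this ratio. Over all 13463 genes the median log2 ratio was 0.07 in the 256 genes of up to 500 bases, 0.06 in the 1188 of 500 to 1000 bases, 0.03 from 1000 to 2000 bases, -0.02 from 2000 to 4000 bases and -0.07 above. The members, 27 of which are no longer than 1000 bases, had medians of 0.09, 0.07, 0.06 and -0.01 in the first 4 of these classes. In the class of 500 to 1000 bases 72.1% of all genes and all 20 members were higher in replicate 2. Up to 500 bases it was 67.2% of all genes and all 7 members. From 1000 to 2000 bases it was 58.6% and 7 of 8 members, and from 2000 to 4000 bases 45.8% and 1 of 2. Spearman's rho of ratio and length was -0.42 over the members and -0.23 over all genes. The part of length in the members' common direction was not tested.

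**Figure D4:**
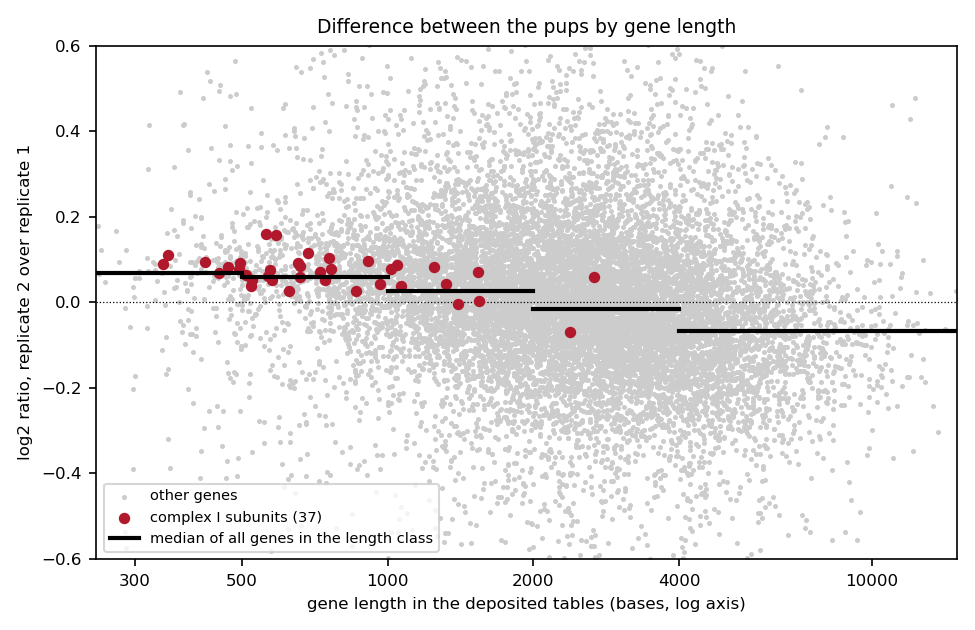
Log2 ratio of replicate 2 over replicate 1 (TMM-scaled counts, axis limited to -0.6 to 0.6) against gene length in bases (log axis), for genes that averaged 50 counts or more, with the 37 members as red points and black bars for the median of all genes in each length class. The black bars fall from 0.07 in the shortest to -0.07 in the longest class, and the members lie near them.

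Other genes tied to the complex stood at other levels. The 18 assembly factors, which build the complex without staying in it, had a median of 46.8 and 47.6 TPM, 18.3-fold below the median member, and all 18 lay under the lowest member, from Nubpl (mean 7.31 TPM), an iron-sulfur carrier, to Tmem70 (97.5 TPM). Of them 11 were higher and 7 lower in replicate 2 by any amount, against 49.7% of 13463 genes higher. None differed by 1.2-fold, against 7.94% of all these genes higher and 7.27% lower by as much. The 7 ND genes of mitochondrial DNA, which encode the other core subunits, had a median of 2019 and 1995 TPM, 2.33-fold above the median member, from mt-Nd4l at 265.5 and 200.2 TPM to mt-Nd1 at 11914 and 11290 TPM. None of the 7 was higher in replicate 2, although 2 were with scaling by library totals and 1 with posterior mean counts, and mt-Nd4l was lower by 1.2-fold or more, with a posterior SD of 30.4% and 58.5% of its count. The median log2 ratio was -0.03 for these genes against 0.07 for the nuclear members, and this difference was not tested. Copies of mitochondrial genes also lie on chromosome 1, and the part of such copies in the ND levels was not tested.

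The 41 nuclear genes of complexes II to V had a median of 1709 and 1755 TPM, 2.01-fold above the median member, and 36 of them lay above the median member. Complex II (4 genes) was closest to complex I, at 824.4 and 797.5 TPM, while the medians were 1709 and 1755 TPM for complex III (9), 2314 and 2324 TPM for complex IV (13) and 1972 and 2032 TPM for complex V (15). In replicate 2, 34 of the 41 were higher and 7 lower by any amount, against 49.7% of 13463 genes higher. The median log2 ratio was 0.05, and with other scalings 31 to 37 were higher. Their median length was 658 bases. Of all genes of 500 to 1000 bases 72.1% were higher, with a median of 0.06. The direction was thus not particular to complex I, and the part of length in it was not tested. Ndufa4, at a mean of 2740 TPM, lay nearer to the complex IV median than to that of the complex I members. So did Ndufc1 (2520 TPM), Ndufab1 (2324 TPM), Ndufb9 (1767 TPM) and Ndufb8 (1712 TPM), so this was not particular to Ndufa4.

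**Figure D5:**
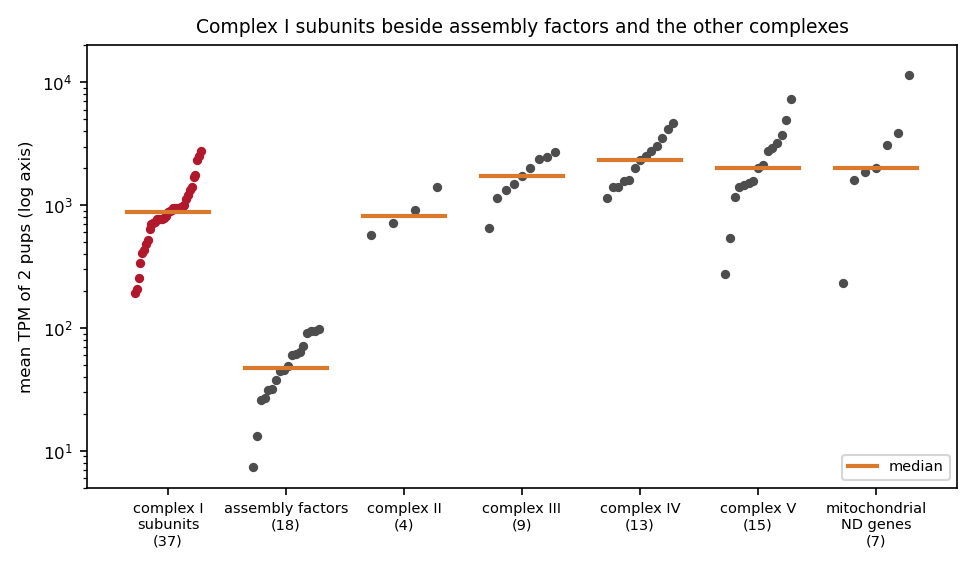
Mean TPM of the 2 pups (log axis) of each gene, for the complex I members, the assembly factors, the nuclear genes of complexes II to V and the mitochondrial ND genes, with the number of genes below each name and the median as a bar. All assembly factors lie below the lowest member, and the medians of complexes III, IV and V lie above that of complex I.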

How the data were processed

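Total RNA of 2 neonatal mouse hearts was sequenced, 1 library per pup. Per the labels' protocols, extraction used an Ambion mirVana kit, input was 10 ng of RNA above 200 bases, and spike-ins were added. Per the deposited read-me, the authors quantified reads on mm10 with GENCODE M4; the sources used here do not give the aligner or versions. The deposited expected counts are estimated reads per gene or transcript, with posterior mean counts and their posterior SD. The deposited TPM values are expected counts over effective length, scaled over all features by the authors. The percent column deposited for transcripts is the share of the gene. The bounds of TPM intervals, a signal in TPM units, were deposited with no stated width.

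Symbols, types and coordinates came from GENCODE M21 (GRCm38) by Ensembl identifier; 42462 of 43346 genes matched. Ratios between pups used expected counts rounded to whole numbers, TMM factors of edgeR 4.0.16 (R 4.3.3) and a prior count of 2, over genes that averaged 50 counts or more. The ratio script was tested on simulated data. Levels were compared by the deposited intervals and the spread of the 2 pups. Shared words of 31 and 100 bases, overlapping exons and promoter motifs were searched in Python 3.11.15 with pandas 2.3.3 and numpy 2.4.6. Library totals were 46151722 and 44707283. All members but 1, which enters the counts and group values and is not reported here, are named; of the other lists, those at the extremes or needed by a sentence. Marker lists were cardiomyocyte, endothelial, fibroblast, erythroid, skeletal muscle, liver, lung and brown fat genes; summed TPM in replicates 1 and 2 were 103.6 and 95.0 (endothelial), 464.2 and 501.6 (fibroblast), 113.5 and 90.8 (skeletal muscle, nearly all Acta1), 2.31 and 1.06 (liver) and 0.03 and 0.48 (brown fat), and the other lists stand in the report. Members and lists were chosen with earlier results of these data known. Alternatives were DESeq2 1.42.0 size factors, library totals, TPM ratios, posterior means, other lengths, totals, priors and filters, each replicate left out, and 3 chosen after seeing the data. Promoter motifs were also chosen then.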

Additional observations from a re-analysis of the deposited data

How the results depend on the processing

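Of 94 recomputed values, 71 were kept, 22 moved and 1 reversed in sign. A level or ratio was kept where it stayed within the SD of the main setting, and a count of members where it stayed near the main count. That SD was between the pups, or over members for the ratio between the pups. Some of the 71 could not have moved. With 2 pups, each replicate alone always lies within their SD, and a ratio between genes does not change with the total. The sum of member TPM (35845) was 34047 with full lengths, 44088 over a total without mitochondrial genes and their copies on chromosome 1, 18006 in CPM and 30749 with coding transcripts only, and the median (862.7) was 1061 over that total, 445.8 in CPM, 896.3 with Ndufb4c added to Ndufb4 and 792.4 with coding transcripts only. The log2 ratio of the highest to the lowest member (3.83) was 3.68 in CPM, 3.72 with Ndufb4c, 3.97 with the M21 length and 5.94 with coding transcripts only. The core to accessory ratio (-0.23) was -0.078 with full lengths, 0.86 in CPM and -0.54 with coding transcripts only, and the peripheral to membrane ratio (-0.12) was -0.023, -0.33 and -0.25 in these and -0.14 with the M21 length. The ratio to the ND genes (-1.22) was -1.12 with full lengths and -2.39 in CPM, and that to the other complexes (-1.01) was -0.92 and -1.02. These settings change the length, the total or the transcripts counted by their own construction. Leaving out a replicate gave 35130 to 36560 TPM for the sum, and no ratio between the pups can be had without both. The median ratio between the pups (0.07) ran from 0.06 with DESeq2 to 0.09 with library totals, with 34 to 36 members higher. No paired analysis was possible because there is only 1 group. Ndufb4c, the M21 length and coding transcripts were chosen after seeing the data.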
